A study of Mus musculus with 6 samples.

Results

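The sarco/endoplasmic reticulum calcium pumps (SERCA), the ryanodine receptors, the IP3 receptors and phospholamban were followed as 10 genes, Atp2a1, Atp2a2, Atp2a3, Ryr1, Ryr2, Ryr3, Itpr1, Itpr2, Itpr3 and Pln, matched by symbol among the 49492 genes of the deposited count table. The cells were HL-1, a line of mouse atrial cardiomyocyte origin, and all were exposed to the saturated fatty acid palmitic acid. 3 libraries were from cells transfected with vector and 3 from cells transfected with ZNF593-AS, a human long noncoding RNA, and the comparison asks what this RNA changes under palmitic acid. Because palmitic acid was present in every library, no value below is a response to the fatty acid. In the titles all treated libraries are ZNF593-AS, whereas the treatment entries name ZNF594-AS for replicate 2 and ZNF595-AS for replicate 3; grouping followed the titles. Whether the replicates are independent cultures is not stated, so a p-value here reflects the variation among these samples alone, and that variation may be technical.

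The sarcoplasmic reticulum, or endoplasmic reticulum in other cells, is the main calcium store of a cell. SERCA pumps use ATP to move calcium into it, and phospholamban is a small membrane protein that holds the cardiac pump back until it is phosphorylated. Ryanodine receptors release calcium from the store on excitation of muscle, and IP3 receptors release it when hormones or growth factors raise the messenger IP3. In working heart muscle the pump gene Atp2a2, the release channel gene Ryr2 and Pln are the abundant genes of this system, and IP3 receptors are the minor release pathway.

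In these cells the store genes were those of a pump and IP3 receptors, with ryanodine receptors and phospholamban close to absent. 9 of the 10 genes had a count in all 6 libraries, all but Pln, but only 5 averaged at least 1 CPM (counts per 1e6 counts of the library, scaled by the TMM factors of edgeR). Between vector and ZNF593-AS 1 gene passed the test. Itpr2 was lower with ZNF593-AS by 0.34 ± 0.07 (SE) on the log2 scale. Of all 16473 tested genes 8.4% passed in either direction, 6.16% lower and 2.23% higher, so 1 call among the 8 store genes that passed the filter on low counts is near that background.

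Total counts were 51470457 to 84547615 per library. Both mates of a read pair appear to have been counted, since 2160 to 2359 genes per library stood at a count of 2 and 365 to 492 at a count of 1. A count of 0 is therefore read against a floor of 6 counts (3 fragments), which is 0.0686 to 0.118 CPM in a single library and covers counting error only. Among 12 markers of atrial cardiomyocytes, 9 were under 1 CPM and 2, Nppa and Sln, had no count, while Tnnt2 and Gata4 were present. The libraries thus lack several genes that define atrial myocytes. Summed per exon length, the atrial markers ranged from 14.0 to 15.7 RPKM (CPM per kilobase of exon) with vector and 14.9 to 16.6 with ZNF593-AS.

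The deposited coordinates (GRCm38) place Atp2a2 on chromosome 5, from 122453513 to 122502225. Itpr2 lies on chromosome 6 from 146108299 to 146502223, a span of 394 kb, and Itpr1 on the same chromosome from 108213096 to 108551109. Itpr3 lies on chromosome 17 from 27057304 to 27122223 and Pln on chromosome 10 from 53337686 to 53345999. The exons of Itpr2 share no base with those of another gene in the table, and 0.00672% of the 50-base stretches of its transcripts occur in transcripts of other genes. In Atp2a2 that share was 3.31%, all with the predicted gene Gm30970, and in each of the other members at most 0.162%. The paralogs can therefore be told apart at this length.

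RefSeq promoter windows (GRCm38.p6, 300 bases from 250 before the start) matched 7 of the 10 genes. Atp2a2, the most abundant of the 10, Itpr1 and Ryr3 had no window. Itpr2 is shown as the gene that passed the test, Itpr3 as the most abundant IP3 receptor and Pln as the least abundant gene. Capitals mark the GC box letters GGGCGG and the TATA box letters TATAAA, searched on both strands with overlapping matches counted. The Itpr2 window is chr6:146502174-146502473 on the minus strand, the Itpr3 window chr17:27057054-27057353 on the plus strand and the Pln window chr10:53337436-53337735 on the plus strand.
Itpr2: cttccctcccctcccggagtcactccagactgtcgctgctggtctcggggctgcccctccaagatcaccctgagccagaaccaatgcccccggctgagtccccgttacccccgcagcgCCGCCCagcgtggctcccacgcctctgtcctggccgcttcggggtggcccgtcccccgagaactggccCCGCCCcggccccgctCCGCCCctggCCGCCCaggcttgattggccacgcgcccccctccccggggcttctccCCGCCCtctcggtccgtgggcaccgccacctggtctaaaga
Itpr3: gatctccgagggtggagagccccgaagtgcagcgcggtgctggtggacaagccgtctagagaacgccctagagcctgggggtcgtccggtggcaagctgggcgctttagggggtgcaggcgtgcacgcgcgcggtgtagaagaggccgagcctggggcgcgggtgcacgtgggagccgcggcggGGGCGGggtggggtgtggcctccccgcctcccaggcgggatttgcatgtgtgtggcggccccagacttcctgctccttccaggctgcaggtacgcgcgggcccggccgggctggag
Pln: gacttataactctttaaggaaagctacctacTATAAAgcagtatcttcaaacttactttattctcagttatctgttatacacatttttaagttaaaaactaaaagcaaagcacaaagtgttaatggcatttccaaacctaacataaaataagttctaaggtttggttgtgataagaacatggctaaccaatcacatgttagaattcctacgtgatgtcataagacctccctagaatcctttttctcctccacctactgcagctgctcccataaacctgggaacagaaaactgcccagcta

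The window of Itpr2 held 26 CpG dinucleotides and 5 GC box matches, and that of Itpr3 held 30 CpG and 1 GC box match. The Pln window held 1 CpG, no GC box match and 1 TATA box match, which lies near the upstream end of the window, far from the start. The median over all 32851 RefSeq windows was 7 CpG, and 35.7% of them held a GC box match and 13.6% a TATA box match. Atp2a3 was also CpG-rich, with 25 CpG and 5 GC box matches, whereas the skeletal muscle genes Atp2a1 and Ryr1 had 4 and 9 CpG. Ryr2 held 18 CpG at a level close to that of Pln. Mean RPKM was 8.82 for Itpr3, 3.22 for Itpr2, 1.82 for Atp2a3 and 0.00436 for Pln. It was 0.134 for Atp2a1, 0.0237 for Ryr1 and 0.00853 for Ryr2. A link between CpG count and level was not tested. These matches are descriptions of letters.

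Atp2a2, the pump gene of heart and of most other tissues, had the highest level per exon length of the 10 genes in every library. With vector it stood at 34.4, 37.4 and 35.5 RPKM in replicates 1 to 3, and with ZNF593-AS at 37.5, 30.2 and 31.3 RPKM. The first treated library was the highest of all 6 and the other two were the lowest, so the groups overlapped. The log2 fold change was -0.12 ± 0.08 (SE; 95% interval -0.28 to 0.05; edgeR adjusted p = 0.446). Atp2a2 lay above 89.4% of the tested genes in mean RPKM. Its splice forms, a muscle form and a general form, cannot be separated in counts per gene.

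Atp2a3, the pump gene known from blood, endothelial and epithelial cells, was the second SERCA gene. It was at 1.63, 1.85 and 1.86 RPKM with vector and 1.95, 1.88 and 1.77 RPKM with ZNF593-AS, again with overlapping groups (log2 fold change 0.07 ± 0.09, 95% interval -0.12 to 0.26, edgeR adjusted p = 0.731). Atp2a1, the fast skeletal muscle pump gene, was at 0.144 ± 0.0311 and 0.125 ± 0.0401 RPKM (SD, n = 3 each), from 192 counts in total. It shares 21.9% of its exon bases with Rabep2 on the opposite strand, which had 9432 counts, and strand use in the counting is not given in the sources used here, so the few reads of Atp2a1 are uncertain. Of the summed SERCA RPKM, Atp2a2 made up 94.9 ± 0.251% with vector and 94.3 ± 0.441% with ZNF593-AS (SD, n = 3 each). The difference of -0.62 percentage points gave p = 0.2 in an exact 2-sided permutation test over 3 against 3 libraries, whose smallest possible p is 0.1.

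**Figure D1:**
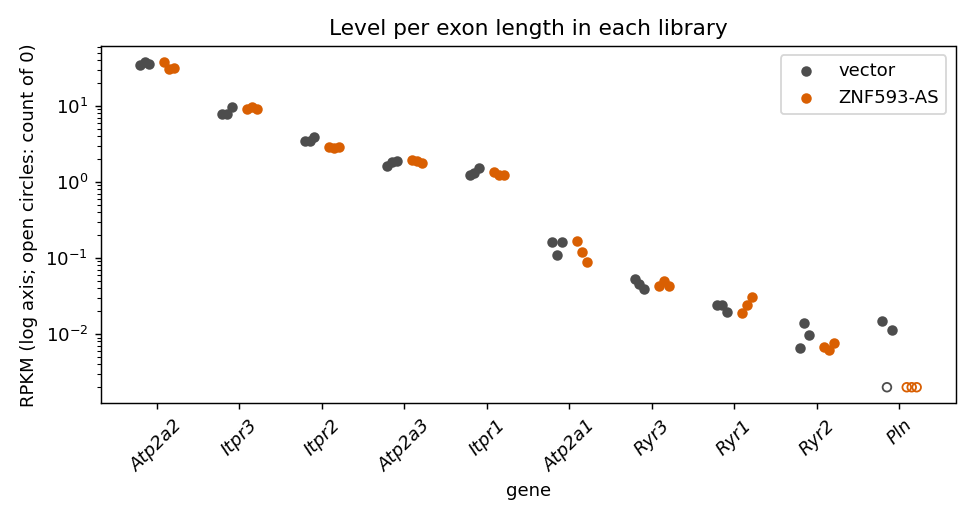
Level of the 10 calcium store genes per exon length in each library (RPKM, log axis), ordered by their mean, with open circles at the bottom for a count of 0. Atp2a2 stands highest, the IP3 receptor genes and Atp2a3 lie between 1.21 and 9.69 RPKM, and the ryanodine receptor genes and Pln lie under 0.053 RPKM.

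Pln was at 2, 0 and 2 counts in vector replicates 1 to 3 and at 0 counts in all ZNF593-AS libraries. Both groups were under the floor of 6 counts, 0.0340 CPM over the vector libraries and 0.0265 CPM over the ZNF593-AS libraries, so no fold change is given. Ryr2, the cardiac ryanodine receptor gene, had 6, 12 and 12 counts with vector and 10, 8 and 8 counts with ZNF593-AS. It was under the filter for testing and at 0.0102 ± 0.00373 and 0.00687 ± 0.000761 RPKM (SD, n = 3 each), with overlapping groups.

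The other ryanodine receptors were also rare. Ryr1, of skeletal muscle, had 28, 27 and 31 counts with vector and 36, 41 and 42 with ZNF593-AS, which in CPM gave overlapping groups (0.494 ± 0.0572 and 0.541 ± 0.133; log2 fold change 0.12 ± 0.31, edgeR adjusted p = 0.874). Ryr3, which is expressed in brain and smooth muscle among other tissues, had 54, 44 and 54 counts with vector and 72, 72 and 50 with ZNF593-AS (log2 fold change -0.02 ± 0.22, edgeR adjusted p = 0.975). Their 95% intervals, -0.53 to 0.77 for Ryr1 and -0.50 to 0.46 for Ryr3, are wide at these depths. Ryr3 shares 4.83% of its exon bases with Aven on the opposite strand, which had 15443 counts against 346, so its level is uncertain. Summed over the 3 genes, ryanodine receptors were at 0.0789 ± 0.00868 RPKM with vector and 0.0767 ± 0.00664 with ZNF593-AS (SD, n = 3 each), against 13.3 ± 1.43 and 13.4 ± 0.261 RPKM for the IP3 receptors.

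**Figure D2:**
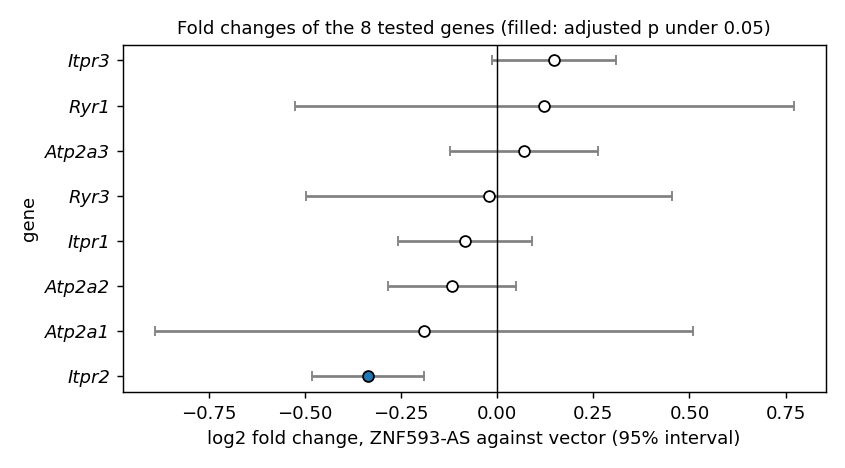
Log2 fold change of the 8 tested genes, ZNF593-AS against vector, with 95% intervals from the edgeR fit; filled points passed the threshold. Itpr2 alone passed, at -0.34, and the intervals of Atp2a1, Ryr1 and Ryr3 are the widest.

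Itpr2, the IP3 receptor gene known as the main form in cardiac myocytes, was at 50.6, 50.6 and 58.2 CPM in vector replicates 1 to 3. With ZNF593-AS it was at 42.1, 41.2 and 43.1 CPM. Every treated library lay below every vector library, and the treated libraries were close together. The log2 fold change was -0.34 ± 0.07 (SE; 95% interval -0.48 to -0.19), a level 0.793 times that with vector (edgeR adjusted p = 0.00378). Of all tested genes, 25.8% had groups that did not overlap in CPM, as Itpr2 did. Vector replicate 3 was the highest library, and without it the log2 fold change was -0.26 (edgeR adjusted p = 0.0228). With ZNF593-AS replicate 1 as the sole treated library, the one whose treatment entry also reads ZNF593-AS, the value was -0.33 but did not pass (edgeR adjusted p = 0.107), with the spread then taken from the vector libraries alone.

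Itpr3, the form common in epithelial and many dividing cells, was the most abundant IP3 receptor gene per exon length. It stood at 70.2, 70.0 and 85.6 CPM with vector and 81.2, 87.1 and 81.8 CPM with ZNF593-AS. Vector replicates 1 and 2 were lower than all treated libraries and vector replicate 3 lay among them. The log2 fold change of 0.15 ± 0.08 did not pass (95% interval -0.01 to 0.31, edgeR adjusted p = 0.297). Without vector replicate 3 Itpr3 rose by 0.25 ± 0.06 (edgeR adjusted p = 0.0292), so this library decides the call. The antisense gene Itpr3os, which shares 2.59% of the exon bases of Itpr3, was at 4.15 ± 0.489 and 4.92 ± 0.484 CPM (SD, n = 3 each) and did not pass either.

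Itpr1, the form best known from neurons and smooth muscle, was at 22.2, 23.9 and 27.6 CPM with vector and 24.5, 22.3 and 22.8 CPM with ZNF593-AS. The groups overlapped (log2 fold change -0.08 ± 0.08, 95% interval -0.26 to 0.09, edgeR adjusted p = 0.628). In all 3 IP3 receptor genes vector replicate 3 was the highest vector library.

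**Figure D3:**
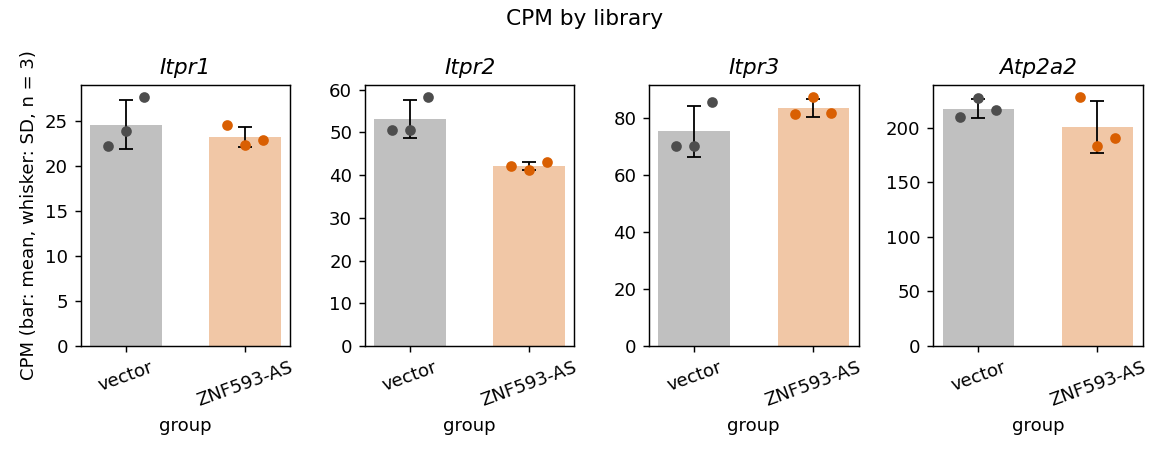
CPM of Itpr1, Itpr2, Itpr3 and Atp2a2 in each library, as points over the group mean (bar) with its SD (whisker, n = 3). The treated libraries of Itpr2, 41.2 to 43.1 CPM, lie below all vector libraries, 50.6 to 58.2 CPM, and the groups of the other genes overlap.

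A ratio within a library does not depend on how libraries are scaled. Per exon length, Itpr3 was 2.29, 2.28 and 2.42 times Itpr2 in the vector libraries and 3.18, 3.49 and 3.12 times in the ZNF593-AS libraries. The groups did not overlap, and the exact 2-sided permutation test gave p = 0.1, the smallest that 3 against 3 allows. Itpr2 was 2.68 ± 0.115 times Itpr1 with vector and 2.25 ± 0.108 times with ZNF593-AS (SD, n = 3 each), also without overlap (exact permutation p = 0.1). The pair without Itpr2, neither gene of which passed, separated as well. Itpr3 was 6.24 ± 0.243 times Itpr1 with vector and 7.34 ± 0.595 times with ZNF593-AS (exact permutation p = 0.1). These ratios share genes and libraries and are not independent of each other or of the Itpr2 call. Of all tested genes, 25.8% did not overlap between the groups in CPM. No such figure was computed for ratios or for the shares that follow.

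As shares of the summed IP3 receptor RPKM, Itpr2 was 27.5, 27.3 and 26.3% with vector and 21.5, 20.3 and 22.0% with ZNF593-AS. Itpr3 was 62.8, 62.3 and 63.6% with vector and 68.4, 70.8 and 68.6% with ZNF593-AS. Both gave p = 0.1 in the exact 2-sided permutation test, the smallest possible. The share of Itpr1 was 10.1 ± 0.338 and 9.47 ± 0.606% (SD, n = 3 each), with overlapping groups (exact permutation p = 0.3). These are shares of 1 sum and not independent of each other. The sum itself overlapped between the groups (difference 0.0883 RPKM, exact permutation p = 1).

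**Figure D4:**
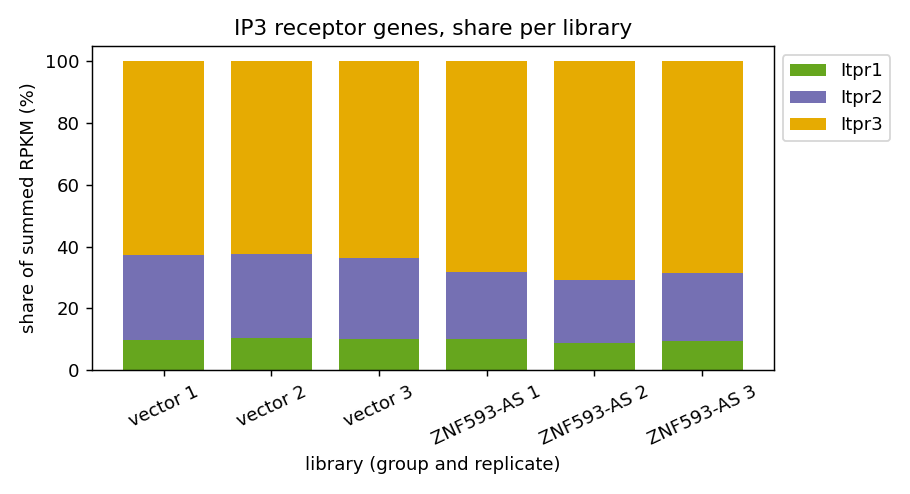
Share of Itpr1, Itpr2 and Itpr3 in the summed RPKM of the IP3 receptor genes, 1 stacked bar per library. Itpr2 takes 26.3 to 27.5% of the vector bars and 20.3 to 22.0% of the ZNF593-AS bars.

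Ordered by mean RPKM over the 6 libraries, the genes were Atp2a2, Itpr3, Itpr2, Atp2a3, Itpr1, Atp2a1, Ryr3, Ryr1, Ryr2 and Pln. The ranges of neighbours in this order did not overlap, except those of Ryr2 and Pln. The order rests on the deposited exon length. In mean CPM, Itpr1 (23.9) stood above Atp2a3 (9.62), and Ryr3 (0.864) and Ryr1 (0.517) stood above Atp2a1 (0.468). Within libraries, Atp2a2 was 3.11 to 4.80 times Itpr3 per exon length, with group means of 4.31 ± 0.541 and 3.57 ± 0.529 (SD, n = 3 each; exact permutation p = 0.2).

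The genes whose centred log2 CPM over the 6 libraries lay nearest to that of Itpr2, among 11075 named genes of at least 1 CPM, were Fam126a, Chd2, Bard1, G3bp2 and Ankrd17. Their root-mean-square distances were 0.0140 to 0.0419 on the log2 scale. Fam126a went from 38.7 ± 3.36 to 30.7 ± 1.01 CPM (SD, n = 3 each; log2 fold change -0.34 ± 0.07). Bard1 did not pass (-0.32 ± 0.10, edgeR adjusted p = 0.0554), and the other 4 were lower. A distance of this kind describes 6 libraries. The genes were picked for likeness to Itpr2 in these same libraries, so fold changes near that of Itpr2 follow from the choice.

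The summed level of 4 of 6 marker lists of other cell types did not overlap between the groups. Of all tested genes, 25.8% did not overlap between the groups in CPM, and no such share was computed for sums. The 7 smooth muscle markers summed to 239 to 271 RPKM with vector and 287 to 356 with ZNF593-AS, and the 7 fibroblast markers to 49.1 to 51.2 and 37.3 to 44.7 RPKM. The 6 macrophage markers summed to 3.94 to 5.01 and 5.46 to 6.22 RPKM with Adgre1 at 4 counts in total, the 6 neuron markers to 5.43 to 6.05 and 6.46 to 6.68 RPKM with Rbfox3 and Gad1 at 0, and the 9 skeletal muscle markers to 4.18 to 4.77 and 3.57 to 4.64 RPKM. The 6 endothelial markers stayed under 0.188 RPKM in sum, and the skeletal muscle and endothelial sums overlapped. A few genes made up most of each sum that did not overlap. With ZNF593-AS, Cd68 averaged 4.996 RPKM in the macrophage list and Tubb3 5.779 RPKM in the neuron list. In the smooth muscle list Des averaged 153.9 and Acta2 106.9 RPKM with ZNF593-AS. Des is also a gene of heart muscle, so the smooth muscle sum is not one of another cell type alone. Col1a1, Col1a2 and Col3a1 made up most of the fibroblast sum. Of the smooth muscle markers Des alone passed, Cd68 passed and Tubb3 did not. Col1a1 (-0.45 ± 0.07), Col3a1 (-0.36 ± 0.08) and Col1a2 (-0.25 ± 0.07) were lower, at edgeR adjusted p = 0.000234, 0.00725 and 0.0307. In the skeletal muscle list, whose sums overlapped, Myog was lower (-1.07 ± 0.26, edgeR adjusted p = 0.0159). Single markers ran against their sums, among them Pdgfra of the fibroblast list, which was higher (0.39 ± 0.11, edgeR adjusted p = 0.037), and Syt1 of the neuron list, which was lower (-1.19 ± 0.34, edgeR adjusted p = 0.038). Their part in the Itpr2 result was not tested. In bulk RNA, fewer cells of a type and less RNA per cell cannot be told apart.

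Around the store, 9 lists of other calcium genes held 175 genes in the table, of which 146 were tested, 5 were lower and 3 higher. That is 5.48%, against 8.4% of all tested genes. Their median log2 fold change was 0.02, against 0.01 over all genes and -0.05 over the 8 tested store genes. Without ZNF593-AS replicate 2 the counts were 3 lower and 0 higher, and without vector replicate 2 they were 5 and 1. Under library totals with no scaling factors 2 were lower and 16 higher, a setting in which 38.7% rather than 73.4% of all calls were lower.

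Among 23 tested genes of IP3 production and removal, 1 was lower and 1 higher, with a median of 0.05. Inpp1, a phosphatase that takes a phosphate off inositol polyphosphates made from IP3, was at 21.8, 18.3 and 20.5 CPM with vector. With ZNF593-AS it was at 7.56, 10.04 and 10.1 CPM, below every vector library, a log2 fold change of -1.13 ± 0.11 (edgeR adjusted p = 1.74e-06). Plcg1, a phospholipase C that makes IP3 downstream of growth factor receptors, rose from 54.9 ± 1.60 to 64.2 ± 2.25 CPM (SD, n = 3 each; 0.22 ± 0.06). Plcg1 no longer passed when replicate 2 or 3 of either group was left out (0.20 to 0.22), and it shares 4.82% of its exon bases with Zhx3. Plcb3, a phospholipase C driven by G proteins and the most abundant gene of the list per exon length, was at 15.7 ± 1.01 and 16.1 ± 0.472 RPKM.

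Of 17 tested regulators of IP3 receptors, 2 were lower and none higher, with a median of -0.03. Ssfa2, also called Itprid2, encodes a protein that tethers IP3 receptors to actin. It was at 69.2, 68.0 and 73.5 CPM with vector and 58.0, 55.9 and 56.1 CPM with ZNF593-AS, without overlap (-0.31 ± 0.06, edgeR adjusted p = 0.00246). Tmbim6, an endoplasmic reticulum membrane protein that lets calcium leak from the store, was at 215 ± 10.1 and 182 ± 12.7 CPM (-0.24 ± 0.07). The Tmbim6 call ended without vector replicate 1 or 3 or any single ZNF593-AS library (-0.27 to -0.18), and under library totals (-0.15). The most abundant gene of this list was Hspa9, a mitochondrial chaperone that links IP3 receptors to the outer mitochondrial membrane, at 1642 ± 78.8 and 1471 ± 35.3 RPKM, which did not pass.

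Among 21 tested ryanodine receptor and junction genes 2 were lower, with a median of 0.05. Camk2d, a calmodulin-dependent kinase that phosphorylates Ryr2 and phospholamban, was at 79.7, 79.2 and 84.0 CPM with vector and 65.9, 66.7 and 65.6 CPM with ZNF593-AS, without overlap (-0.29 ± 0.06, edgeR adjusted p = 0.00293). The fall of Asph, which also encodes the junction protein junctin, from 81.0 ± 2.35 to 68.0 ± 6.16 CPM no longer passed when replicate 1 or 3 of vector or replicate 2 of ZNF593-AS was left out (-0.23, -0.26 and -0.18, against -0.25 with all libraries), nor under library totals (-0.16), and it shares 14.3% of its exon bases with Clvs1. Under library totals the call of Camk2d ended as well (-0.20, edgeR adjusted p = 0.0518). Calm2, a calmodulin gene, was the most abundant, at 1572 ± 136 and 1633 ± 50.1 RPKM.

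Of 18 tested calcineurin and calmodulin targets 2 rose, with a median of 0.16. Ppp3ca, the catalytic subunit of the phosphatase calcineurin, was at 67.5, 67.0 and 66.1 CPM with vector and 74.5, 83.2 and 84.5 CPM with ZNF593-AS (0.27 ± 0.06, edgeR adjusted p = 0.0111). Its call ended without ZNF593-AS replicate 2 or 3 (0.25 and 0.24). Camk1, a calmodulin-dependent kinase and the most abundant gene of the list, went from 202 ± 12.6 to 241 ± 8.01 CPM (0.26 ± 0.07), and it no longer passed when replicate 2 of either group was left out (0.21 and 0.23). Camk1 shares 3.88% of its exon bases with Ogg1.

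In the other 5 lists, edgeR called 0 genes and limma-voom 0, while DESeq2 called 1, Saraf, a regulator of store-operated entry, as lower. At an unadjusted p under 0.05 there were 4 of 11 SERCA regulators, 3 of 15 luminal calcium-binding proteins, 3 of 16 genes of store-operated entry and leak, 1 of 12 genes of plasma membrane and Golgi transport and 2 of 13 genes of mitochondrial calcium uptake, beside 3355 of all 16473 tested genes. The 15 luminal proteins, chaperones and buffers that hold calcium inside the store, had log2 fold changes of -0.29 to -0.03. Hsp90b1, the most abundant of them per exon length in the mean of all 6 libraries, was at 1678 ± 131 and 1372 ± 250 RPKM (SD, n = 3 each), and its exons overlap 3 other genes with many counts. The most abundant genes of the lists of entry and leak, plasma membrane and Golgi transport and mitochondrial uptake did not pass. They were Tmco1, a calcium leak channel gene (20.5 ± 0.830 and 19.7 ± 2.96 RPKM), Bsg, a partner of plasma membrane calcium pumps (273 ± 25.7 and 241 ± 25.8 RPKM), and Ghitm, of the inner mitochondrial membrane (222 ± 17.0 and 198 ± 5.90 RPKM).

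**Figure D5:**
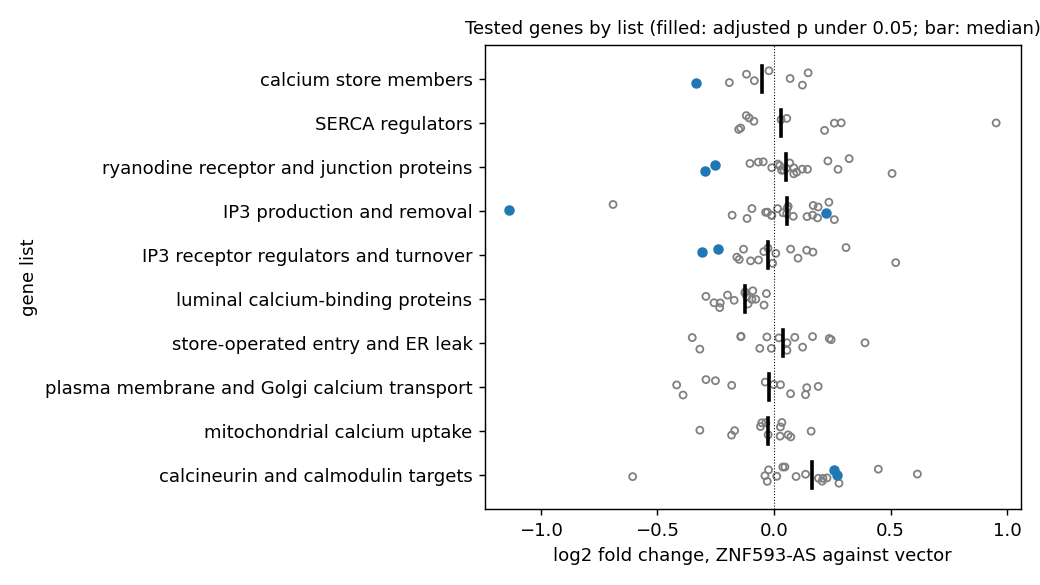
Log2 fold change of each tested gene, ZNF593-AS against vector, by list, with the list median as a bar and filled points for genes past the threshold. Inpp1 lies farthest to the left at -1.13, and the 15 luminal proteins lie between -0.29 and -0.03.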

How the data were processed

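The authors deposited 1 table of raw read counts per gene for 6 libraries, with exon coordinates and exon length beside them, per the file headers. The submitters' processing notes list CASAVA, cutadapt 1.2.1, Bowtie2 and TopHat2 and the build GRCm38. The counter, its handling of strand and overlaps, and the annotation are each not given in the sources used. Samples were grouped by title. The filterByExpr function (at least 10 counts, total of at least 15) retained 16473 genes. Libraries were scaled by TMM and tested with edgeR 4.0.16 in R 4.3.3 (its robust quasi-likelihood test, which is 2-sided, with Benjamini-Hochberg adjusted p over all tested genes and a threshold of 0.05); adjusted p-values are edgeR's. Every ± on a fold change is its SE and every ± on a level or share is the SD over 3 libraries. RPKM divides CPM by the deposited exon length in kilobases. The pipeline was tested on simulated data. Alternatives used DESeq2 1.42.0, limma 3.58.1, other scalings and filters, halved counts, a replicate block and left-out libraries. All pairs of libraries differed beyond sampling noise, with a chi-square of at least 10.7 per gene on halved counts.

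Named were the 10 store genes, up to 3 called genes per direction and the most abundant gene in 8 of 9 calcium gene lists, the 5 genes nearest to a called member and overlapping genes. The members and lists were chosen with earlier results of these data known. 3 listed SERCA regulators (Strit1, Erln, Arln) and Itprip had no row matched by symbol. The most abundant gene of the SERCA regulator list is not reported here.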

Additional observations from a re-analysis of the deposited data

How the results depend on the processing

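Itpr2 stayed lower and called in 15 of 16 alternatives, with log2 fold changes of -0.37 to -0.25 and adjusted p-values of 0.000167 to 0.0331. The lowest of these came from the fit without a filter. Its degrees of freedom, 108540 for Itpr2, leave little weight on the gene's own spread. The call counts of that fit share this limit. With ZNF593-AS replicate 1 as the sole treated library, which is assumed to vary like the vector libraries, Itpr2 did not pass. Its value was the same size, at -0.33 ± 0.11, with a larger SE. DESeq2 and limma-voom were not run on those libraries. Left-out libraries gave 1 lower and 0 to 1 higher store genes, the latter being Itpr3 without vector replicate 3. Inpp1 stayed lower in all 16 alternatives.

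The all-gene calls, 1015 lower and 368 higher, were 811 and 1284 under library totals, 1111 and 561 without a filter, 630 and 45 with ZNF593-AS replicate 1 as the sole treated library, and 827 to 962 and 138 to 394 over the left-out libraries. The calcium lists, 5 lower and 3 higher, had 2 and 16, 12 and 7, and 1 and 0 under those first 3 settings, and 3 to 7 and 0 to 4 over the left-out libraries. Genes not called changed sign. Under library totals Ryr3 was at 0.072 and Itpr1 at 0.0054. With the sole treated library Atp2a1 was at 0.21, Atp2a2 at 0.068 and Ryr1 at -0.25, and the Itpr1 share difference was 0.0251 percentage points against -0.61. Over left-out libraries Ryr1 ranged from -0.061 to 0.29, Ryr3 from -0.13 to 0.094 and Itpr1 from -0.15 to 0.0099. The cause of these changes was not tested. The Itpr2 share difference was -6.12 to -5.27 percentage points over left-out libraries and -6.44 when counts were not divided by length.

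The shared replicate numbers gave no sign of pairing. Correlations of same-numbered deviations were -0.0848, -0.0285 and 0.0467, within the -0.132 to 0.158 of unlike numbers. So few libraries cannot exclude pairing. With the replicate block 1 store gene was lower (Itpr2, -0.33), and 997 genes were lower and 334 higher. Depth limits Atp2a1, Ryr1, Ryr2, Ryr3 and Pln, at 4 to 346 counts in total.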

Other observations

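Some muscle partners of the store genes were rare and others were not. Over the 6 libraries Casq2, the calcium buffer of the cardiac store, had 104 counts, Hrc, another luminal buffer, 82, Trdn, the junction protein triadin, 14, Mrln, a skeletal muscle SERCA inhibitor, 2 and Sln, the atrial SERCA inhibitor, 0, which allows up to 0.0149 CPM (6 counts, counting error only). By contrast Jph1 and Jph2, which tie the store to the plasma membrane in muscle, had 15023 and 9268 counts, and S100a1, a calcium-binding protein of heart muscle, 3589. Among genes of wider expression, Calr, the luminal buffer of non-muscle cells, was at 4330 and 4057 CPM with vector and ZNF593-AS, Fkbp1a, which binds release channels, at 143 and 133 CPM against 0.800 and 1.14 CPM for its cardiac relative Fkbp1b, and Mcu, the mitochondrial calcium channel gene, at 38.4 and 39.2 CPM. None of the genes in this paragraph passed the edgeR test, and Trdn, Mrln and Sln were under its filter. These genes were chosen after their values were seen.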
